A study of Homo sapiens with 26 samples.

Results

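Iron uptake, storage and export genes were followed in 3 human lung cancer cell lines treated with Omomyc or its vehicle. The set was chosen by name: the uptake genes TFRC, STEAP3 and SLC11A2, the storage genes FTH1, FTL and NCOA4, the exporter gene SLC40A1, the regulator genes ACO1 and IREB2, and the heme oxygenase gene HMOX1. Of these 10 genes, 8 had a probe set with their symbol, 1 probe set each, among 17687 genes measured. FTH1 and IREB2 were not analysed here.

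RNA was hybridised to 26 single-colour arrays. The groups were NCI-H1975 (H1975) with Omomyc (5 arrays) and with PBS (4 arrays), A549 with Omomyc (3 arrays) and with PBS (4 arrays), and NCI-H1299 (H1299) with Omomyc (5 arrays) and with PBS (5 arrays). Omomyc is a small protein derived from the part of MYC that pairs with other proteins, and it keeps the transcription factor MYC off MAX and off DNA. Plated cells were left overnight and then received 12.8 µM Omomyc or vehicle, for a time that the labels do not state. PBS, phosphate-buffered saline, was the vehicle and the only control, so Omomyc and any added protein cannot be told apart. All lines grew in RPMI1640 with serum. H1975 is an EGFR-mutant lung adenocarcinoma line, and A549 carries a mutation in KEAP1, which normally holds back the antioxidant factor NRF2. H1299 lacks p53. The arrays of a group are labelled as biological replicas, and no label says whether cultures were separate, so the p-values rest on array-to-array spread, which may be technical.

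Values are log2 signals, so a difference of 1 is a doubling. Differences are Omomyc minus PBS, or the first line minus the second, with the standard error (SE) of a limma fit to all arrays after ±. Group means are given ± SD. Adjusted p is Benjamini-Hochberg over all 17687 genes, and a gene was called when it was under 0.05. Signals of different probe sets are not compared as transcript amounts. By the shape of their whole value distributions the arrays formed 3 clusters, with 9, 10 and 7 arrays. They are called runs 1, 2 and 3 here, and normalization runs inside the figures. No label names these runs, so separate normalization and other batches cannot be told apart. Each run held both treatments of every line, except that run 3 had no A549 Omomyc array. Background probe sets had means between 2.34 and 6.69. The keratin gene KRT18 was high in all lines (16.15 ± 0.32 in A549 PBS arrays, n = 4, 15.11 ± 0.42 in H1975, n = 4, and 12.95 ± 0.38 in H1299, n = 5). The epithelial cadherin gene CDH1 was at 9.78 ± 0.57 in A549 but within the background range in H1975 (3.93 ± 0.34) and H1299 (3.33 ± 0.27). The other marker means that follow are of PBS arrays of A549, H1975 and H1299, in that order. The epithelial genes EPCAM (9.54, 8.99 and 3.92) and KRT19 (10.33, 15.45 and 4.20) were in the background range in H1299 alone. KRT8 was at 17.48, 16.73 and 13.75. The mesenchymal genes VIM (13.19, 16.05 and 16.15) and ZEB1 (11.74, 12.82 and 13.51) were above that range in all lines. Of 8 leukocyte, endothelial and erythroid marker genes 7 were measured, and 6 had group means between 2.60 and 3.61. The other was CD68, a lysosomal protein gene, at 14.35 with Omomyc and 12.86 with PBS in H1975. It was at 13.96 with Omomyc and 13.34 with PBS in H1299, and at 9.25 and 9.09 in A549. The part of CD68 in the results was not tested.

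Cells take up iron bound to transferrin through the transferrin receptor, reduce it in the endosome, and move it to the cytosol. Spare iron is stored in ferritin, a shell of heavy and light chains, or exported by ferroportin. When iron is scarce, iron regulatory proteins bind stem-loops called iron-responsive elements: they stabilise the transferrin receptor mRNA through its 3′ end and block translation of ferritin mRNA at its 5′ end. MYC is known, from work in other cell types, to raise transferrin receptor transcription and IREB2 and to lower the ferritin heavy chain. NRF2 is known to raise ferritin, ferroportin and heme oxygenase transcripts. An array reads mRNA levels and not translation, so the block of ferritin translation is outside what was measured.

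The iron-responsive element of FTL is shown because it is the element through which the light chain message is read by the regulatory proteins. The sequence is from RefSeq (GRCh38.p14, chr19:48965335-48965358, plus strand), in the 5′ UTR at bases 27 to 50 of the transcript, and capitals mark the 6-base loop, CAGTGT.
FTL iron-responsive element: ctcttgcttcaaCAGTGTttggac

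The window ends at base 50, inside the 3′ arm of the stem. The iron-responsive element core, a C set a stem's length before a loop that begins CAGTG, was searched on the sense strand. It was present here and in 1.67% of 35116 RefSeq windows of 50 bases after a start. Promoters are shown for TFRC and FTL, a pair that moved in opposite directions in H1975. Each covers the 250 bases before the RefSeq start (GRCh38.p14), TFRC at chr3:196082091-196082340 on the minus strand and FTL at chr19:48965059-48965308 on the plus strand. Capitals mark the TATA box TATAAA, found in TFRC and not in the FTL window.
TFRC promoter: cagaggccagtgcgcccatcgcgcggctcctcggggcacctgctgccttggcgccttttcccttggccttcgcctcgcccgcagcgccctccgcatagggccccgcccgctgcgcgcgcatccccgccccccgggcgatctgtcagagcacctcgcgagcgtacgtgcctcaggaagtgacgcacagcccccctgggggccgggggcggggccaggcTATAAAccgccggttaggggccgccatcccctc
FTL promoter: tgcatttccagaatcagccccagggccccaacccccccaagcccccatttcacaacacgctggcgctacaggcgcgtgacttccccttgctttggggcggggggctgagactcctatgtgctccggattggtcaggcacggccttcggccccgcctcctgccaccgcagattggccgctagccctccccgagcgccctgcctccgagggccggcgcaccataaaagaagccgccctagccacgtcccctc

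The TATA box, searched on the sense strand, starts 33 bases before the TFRC start, and 6.8% of RefSeq windows of this length hold those letters. Neither the canonical MYC-binding E-box CACGTG nor the core of the antioxidant response element, TGACNNNGC, was found on either strand in these windows. They occur in 6.34% and 10.9% of all windows. The motifs searched did not overlap in the sequences shown, and the absence of letters from this window says nothing of sites elsewhere. Windows of 7 of the 8 measured genes were found, and HMOX1 had none.

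In H1975, Omomyc was followed by a lower level of the transferrin receptor transcript and higher levels of FTL, HMOX1 and SLC11A2. TFRC, which encodes the receptor that carries transferrin iron into the cell, stood at 8.58, 9.34, 8.83, 9.23 and 8.67 in Omomyc arrays, against 10.86, 11.04, 10.99 and 10.94 in PBS arrays. Every Omomyc array was below every PBS array, and the PBS arrays lay within a narrow band. The fall was -2.03 ± 0.22 (95% confidence interval -2.48 to -1.57, adjusted p = 2.12e-07), a level 4.07-fold lower, and it ranked as number 66 of 17687 genes by p. In runs 1, 2 and 3 the difference was -1.90, -1.99 and -2.26. Of the 8 genes, 4 were called in H1975, 3 higher and 1 lower, against 11.8% of all genes, 5.57% higher and 6.28% lower. The groups did not overlap for the same 4 genes, and for 10.5% of all genes.

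FTL encodes the ferritin light chain, which stabilises the iron core of the ferritin shell. Its level was 16.50, 15.92, 15.99, 15.74 and 16.17 with Omomyc, against 15.66, 14.90, 14.69 and 15.17 with PBS in H1975. The lowest Omomyc array was just above the highest PBS array. FTL rose by 0.96 ± 0.23 (adjusted p = 0.00552), a 1.95-fold difference. Ferritin light chain has processed pseudogenes that are close copies, and whether the probe set also reads them was not tested.

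HMOX1, whose enzyme opens the heme ring and frees its iron, was at 9.86, 9.30, 10.11, 9.37 and 8.90 with Omomyc, against 8.20, 8.32, 7.88 and 7.04 with PBS in H1975. The groups did not overlap, and in each group the run 3 array was the lowest. HMOX1 rose by 1.64 ± 0.46 (adjusted p = 0.0167), a 3.13-fold difference. The run differences were 1.38, 1.64 and 1.85, and with the run as a block the SE was 0.23 (log2 difference 1.58, adjusted p = 8.95e-06). Without PBS replicate 4, the PBS array of run 3, the difference was 1.37 (adjusted p = 0.0791).

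SLC11A2, the divalent metal transporter that moves ferrous iron out of endosomes, was at 8.35, 8.41, 8.58, 8.65 and 8.66 with Omomyc, against 7.38, 7.83, 7.95 and 7.40 with PBS in H1975. All Omomyc arrays were higher than all PBS arrays. The rise of 0.89 ± 0.29 (adjusted p = 0.0421) was close to the threshold. It missed the threshold when any 1 array other than PBS replicate 3 was left out (log2 difference 0.81 to 0.96, adjusted p = 0.0558 to 0.12). It was 0.97 ± 0.23 with run as a block (adjusted p = 0.00237), 0.80 with run and replicate number both as blocks (adjusted p = 0.218) and 0.81 with array weights (adjusted p = 0.0697).

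The other genes were not called in H1975. STEAP3, the endosomal ferrireductase, averaged 11.48 ± 0.21 with Omomyc (n = 5) and 11.84 ± 0.23 with PBS (n = 4), a difference of -0.36 ± 0.19 (adjusted p = 0.277). NCOA4, the receptor that delivers ferritin to lysosomes, differed by 0.07 ± 0.23 (95% interval -0.40 to 0.54). ACO1, the bifunctional gene of cytosolic aconitase and iron regulatory protein 1, differed by -0.01 ± 0.20 (95% interval -0.42 to 0.41). SLC40A1, which encodes the iron exporter ferroportin, was within the background range in both groups, 4.07 ± 0.48 with Omomyc and 3.61 ± 0.32 with PBS.

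**Figure D1:**
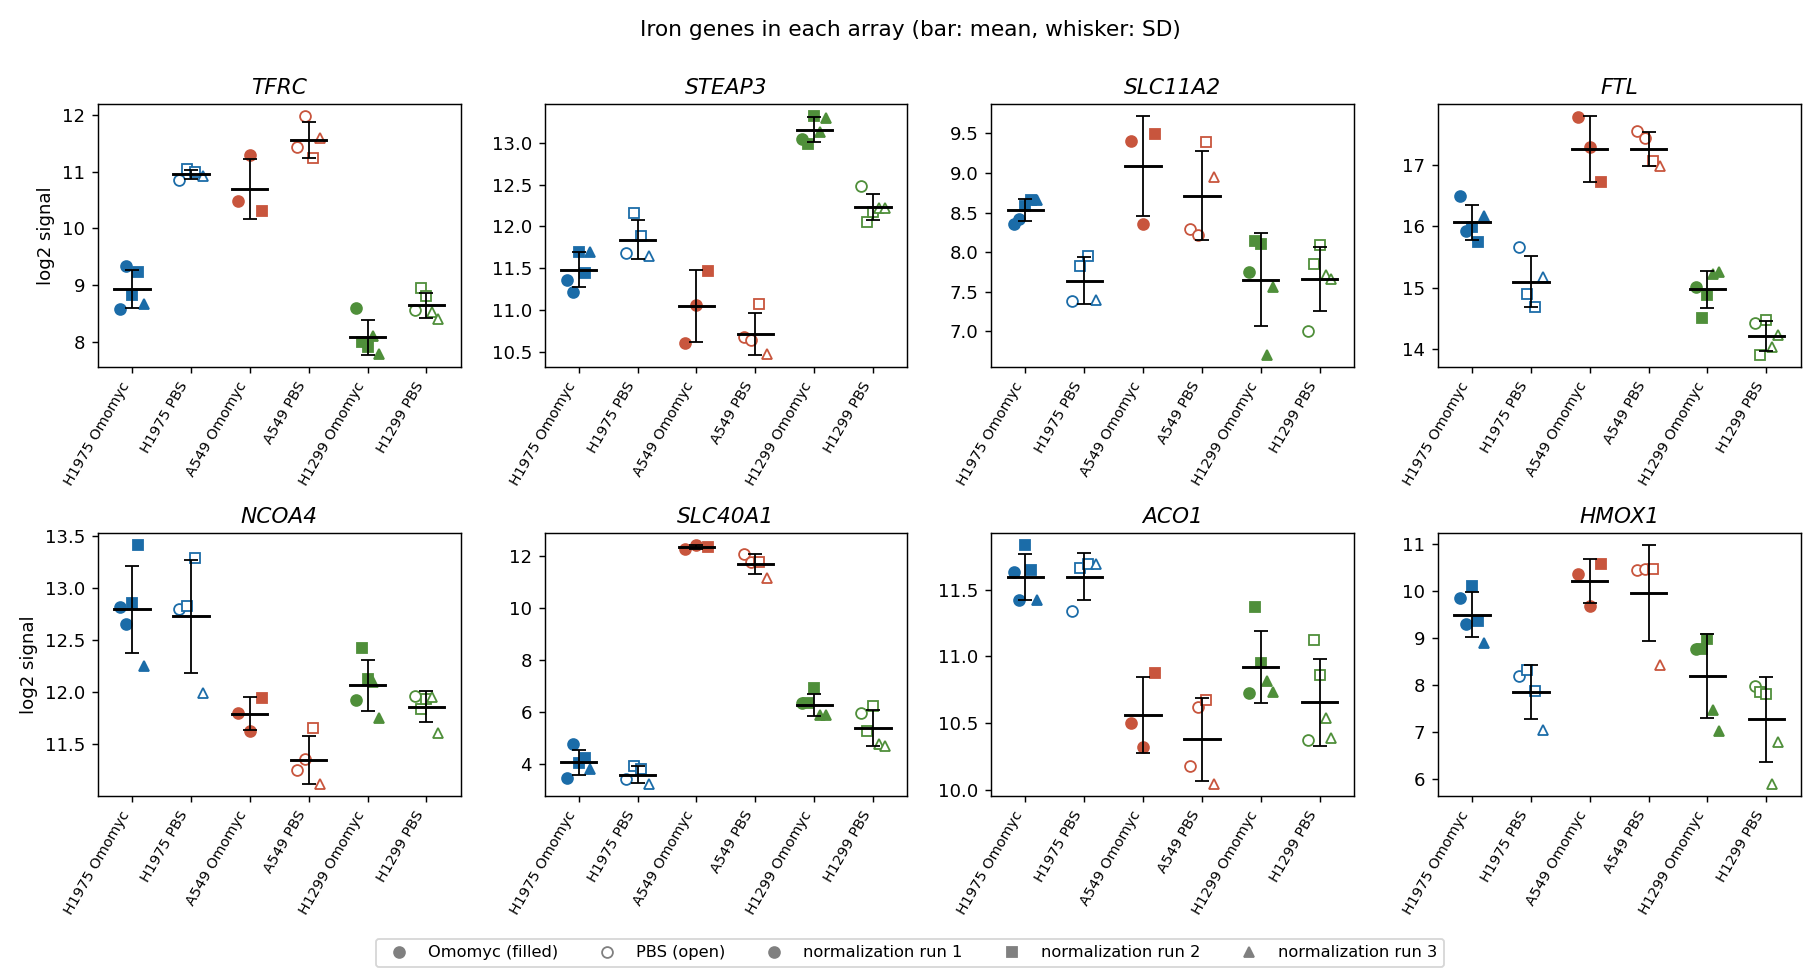
Log2 signal (vertical axis) of each of the 8 measured genes in every array, by line and treatment, with bars for means and whiskers for SD. Filled points are Omomyc, open points are PBS, and circles, squares and triangles are runs 1, 2 and 3, the clusters of arrays. TFRC falls by 2.03 in H1975, SLC40A1 stands apart in A549, and the run 3 arrays are the lowest for HMOX1 in every group that has them.

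In H1299, STEAP3, FTL and SLC40A1 rose, and TFRC was lower by less than in H1975. STEAP3 was at 13.05, 12.98, 13.31, 13.13 and 13.30 with Omomyc, against 12.48, 12.06, 12.17, 12.22 and 12.22 with PBS. The groups were well apart. The rise was 0.93 ± 0.18 (adjusted p = 0.000817), or 1.90-fold, with run differences of 0.57, 1.03 and 1.00 in runs 1, 2 and 3. The adjusted p stayed between 0.000966 and 0.00324 when each array of H1299 was left out. In all, 3 of the 8 genes were called in this line, all 3 higher, against 8.87% of all genes called in either direction, 4.35% higher and 4.52% lower. The groups did not overlap for 2 of the 8, STEAP3 and FTL, and for 8% of all genes.

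FTL in H1299 stood at 15.01, 14.51, 14.88, 15.23 and 15.26 with Omomyc, against 14.42, 13.91, 14.48, 14.04 and 14.24 with PBS. The lowest Omomyc array was only just above the highest PBS array. The difference was 0.76 ± 0.22 (adjusted p = 0.0267), 1.69-fold, and 0.59, 0.50 and 1.10 in the runs. The adjusted p was 0.0758 without PBS replicate 2, 0.0647 without PBS replicate 4, and 0.0542, 0.0724 and 0.0741 without Omomyc replicate 1, 4 or 5. With each array centred on its median it was 0.0947 (log2 difference 0.80).

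SLC40A1 was dim in H1299, at 6.34, 6.36, 6.92, 5.90 and 5.87 with Omomyc and 5.97, 5.27, 6.23, 4.79 and 4.71 with PBS. These levels lie within or near the background range and the groups overlapped, so the fold is uncertain. The difference was 0.89 ± 0.28 (adjusted p = 0.044). The call was lost without PBS replicate 2, 4 or 5 or Omomyc replicate 1, 2 or 3 (adjusted p = 0.0789 to 0.149), and in a fit to the H1299 arrays alone (adjusted p = 0.109). With the run as a block, the adjusted p was 0.00323.

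TFRC in H1299 was at 8.60, 7.997, 7.91, 8.10 and 7.78 with Omomyc, against 8.57, 8.94, 8.80, 8.52 and 8.40 with PBS. The groups overlapped through Omomyc replicate 1. The difference of -0.57 ± 0.21 was not called (adjusted p = 0.0934). It was called with the replicate number as a block (adjusted p = 0.0464), with run as a block (adjusted p = 0.0427) and without Omomyc replicate 1 (log2 difference -0.70, adjusted p = 0.042). The run differences were 0.03, -0.92 and -0.52.

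HMOX1 in H1299 was at 8.76, 8.77, 8.98, 7.48 and 7.02 with Omomyc, against 7.99, 7.86, 7.82, 5.90 and 6.80 with PBS. In both groups the 2 run 3 arrays were far below the others, so the groups overlapped across runs, while within each run every Omomyc array was above every PBS array. The difference of 0.93 ± 0.43 was not called (adjusted p = 0.233). It was called with the replicate number as a block (adjusted p = 0.0101) and with run as a block (adjusted p = 0.00291), and its value in the runs was 0.77, 1.03 and 0.90. With the run as a block 5 of the 8 genes were called in H1299, 4 higher and 1 lower, and 15.9% of all genes. The same fit called 4 of the 8 in H1975 (19.2% of all genes) and 1 of the 8 in A549 (2.84%).

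SLC11A2 differed by -0.01 ± 0.27 in H1299 (95% interval -0.57 to 0.55), with run differences of 0.74, 0.15 and -0.55 that change sign. NCOA4 differed by 0.21 ± 0.22 (adjusted p = 0.727) and ACO1 by 0.27 ± 0.19 (adjusted p = 0.529).

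In A549, 0 of the 8 genes were called, with 1.19% of all genes called in limma, 0.916% higher and 0.277% lower. TFRC had the lowest p of the 8, at number 312 of 17687 genes by p in limma. TFRC was at 10.48, 11.29 and 10.31 with Omomyc, against 11.44, 11.98, 11.24 and 11.59 with PBS. Omomyc replicate 2 alone reached into the PBS range. The difference was -0.87 ± 0.25 (95% interval -1.39 to -0.35, adjusted p = 0.102), and it was -0.83 and -0.93 in runs 1 and 2. TFRC was called without Omomyc replicate 2 (log2 difference -1.17, adjusted p = 0.0242), with run as a block (adjusted p = 0.0259) and with array weights (adjusted p = 0.0226), but not with the replicate number as a block (adjusted p = 0.0956).

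FTL in A549 had the same mean with both treatments, 17.26 ± 0.53 with Omomyc (n = 3) and 17.26 ± 0.27 with PBS (n = 4), and the 95% interval of the difference was -0.55 to 0.55. SLC40A1 was at 12.26, 12.39 and 12.33 with Omomyc, against 12.04, 11.75, 11.77 and 11.15 with PBS. All Omomyc arrays were above all PBS arrays, as for no other of the 8 genes and 9.39% of all genes, but the difference of 0.65 ± 0.34 was not called (adjusted p = 0.631). HMOX1 was at 10.37, 9.69 and 10.58 with Omomyc, against 10.45, 10.48, 10.47 and 8.44 with PBS. PBS replicate 4, the only A549 array of run 3, stood apart, and the difference was 0.25 with it and -0.25 without it, neither called. STEAP3 (0.33 ± 0.22), SLC11A2 (0.37 ± 0.33), NCOA4 (0.44 ± 0.26) and ACO1 (0.19 ± 0.23) were not called either.

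**Figure D2:**
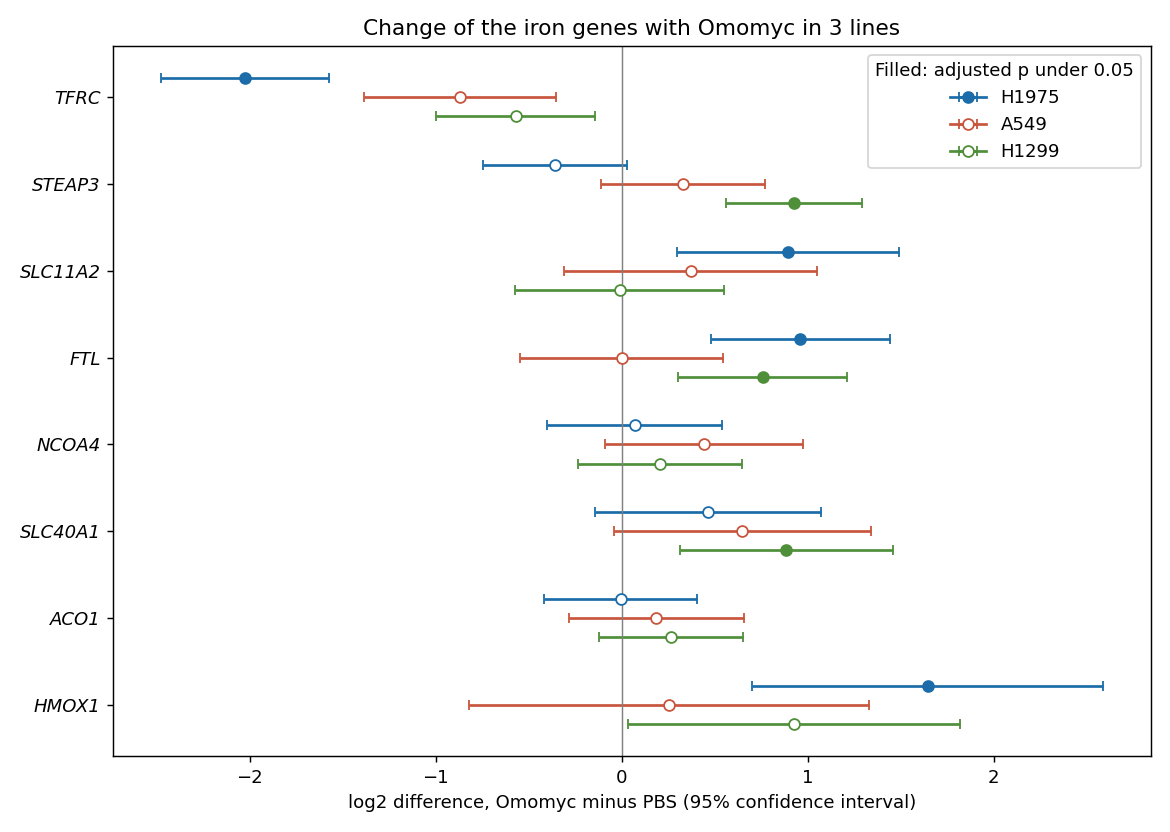
Log2 difference, Omomyc minus PBS (horizontal axis), of the 8 genes in each line, with 95% confidence intervals of the limma fit and filled points for adjusted p under 0.05. TFRC lies left of 0 in all 3 lines, called in H1975 alone in this fit, while FTL lies right of 0 in H1975 and H1299 and at 0 in A549.

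The response was compared between lines with a moderated F test of the interaction, which called 2 of the 8 genes and 8.18% of all genes. TFRC was the first (adjusted p = 0.00495). Its change in H1975 was larger than in A549 by 1.16 ± 0.33 (A549 minus H1975, adjusted p = 0.0436) and larger than in H1299 (H1975 minus H1299, -1.46 ± 0.30, adjusted p = 0.00286), while A549 and H1299 did not differ beyond error (-0.30 ± 0.33, adjusted p = 0.824). STEAP3 was the second (adjusted p = 0.00508), with a response of -0.36 in H1975 and 0.93 in H1299, which differed by -1.28 ± 0.26 (adjusted p = 0.002). Of the pairwise differences in response, 1 of 8 was called for A549 minus H1975 (4.62% of all genes), 2 of 8 for H1975 minus H1299 (5.7%) and 0 of 8 for A549 minus H1299 (2.47%) by limma. For A549 minus H1299, the smallest adjusted p of the 8 were 0.351 for FTL and 0.366 for STEAP3. With the run as a block the counts were 3 of 8 for A549 minus H1975 (10.3% of all genes), 3 of 8 for H1975 minus H1299 (11.7%), where SLC11A2 was gained (adjusted p = 0.0366), and 0 of 8 for A549 minus H1299 (6.41%). The F test then called 4 of 8, and 17.4% of all genes. For FTL, whose response was 0.00 in A549 and 0.96 in H1975, the difference of -0.96 ± 0.35 was not called (adjusted p = 0.136), but it was with run as a block (adjusted p = 0.0336, and 0.0432 in the F test). For HMOX1 the F test gave an adjusted p of 0.481, and 0.0035 with the run as a block, where the A549 and H1975 responses differed (adjusted p = 0.0018).

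**Figure D3:**
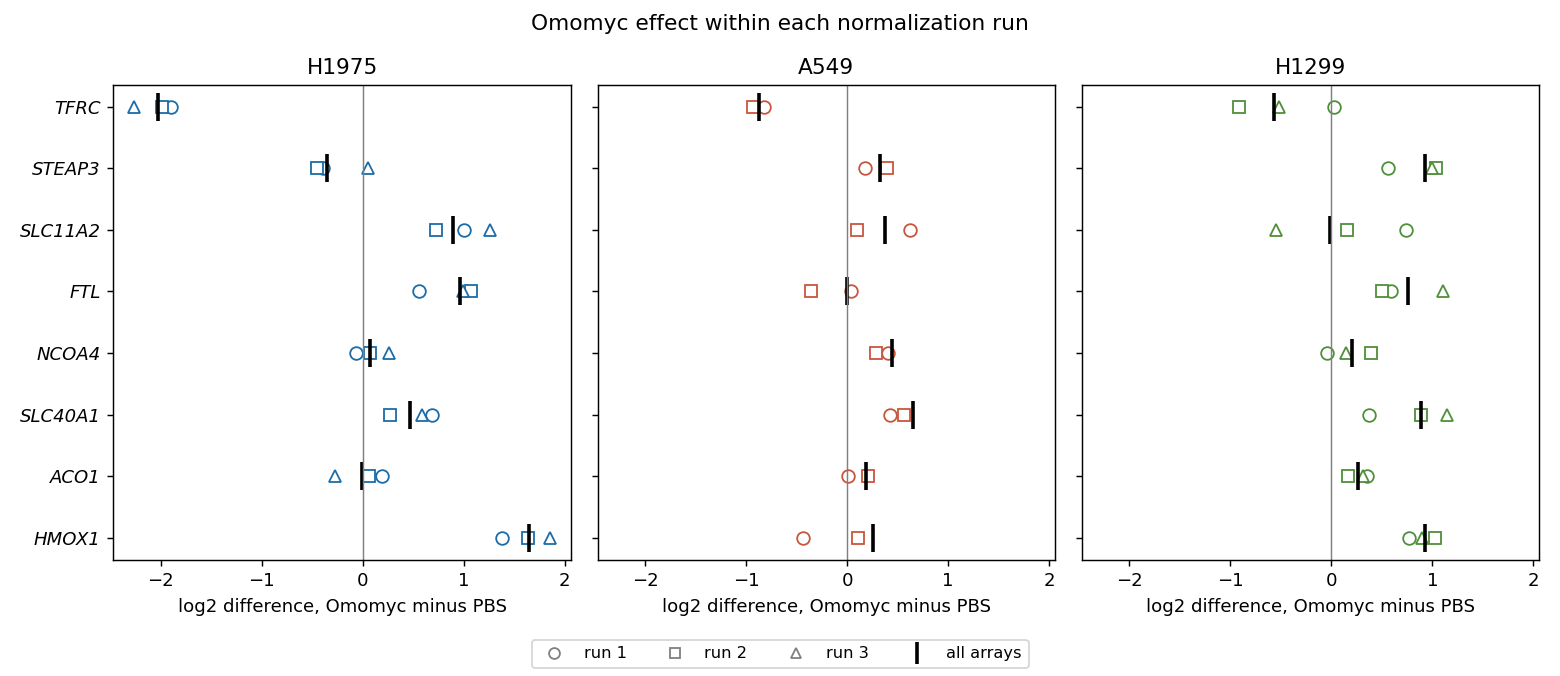
Log2 difference, Omomyc minus PBS (horizontal axis, same scale in all panels), of each gene within runs 1 (circle), 2 (square) and 3 (triangle) and over all arrays (black bar). TFRC in H1975 lies between -2.26 and -1.90 in every run, and SLC11A2 in H1299 between -0.55 and 0.74.

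The PBS arrays showed large differences between the lines before any Omomyc, with A549 above both other lines in FTL, SLC40A1 and HMOX1. All 8 genes were called between A549 and H1975, 5 higher and 3 lower in A549, where 38.3% of all genes were called, 18% higher and 20.3% lower. Between A549 and H1299, 6 were called, 5 higher and 1 lower in A549 (41.5% of all genes, 19% higher and 22.5% lower). Between H1975 and H1299, 5 were called, 4 higher and 1 lower in H1975 (42% of all genes, 21.2% higher and 20.8% lower). In each comparison the genes called were those whose arrays did not overlap, as was so for 35.2%, 35.1% and 34.5% of all genes in these 3 comparisons. These comparisons share PBS arrays.

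SLC40A1 had the widest spread. Its PBS level was 12.04, 11.75, 11.77 and 11.15 in A549, 3.43, 3.93, 3.82 and 3.25 in H1975 and 5.97, 5.27, 6.23, 4.79 and 4.71 in H1299. The A549 arrays were far above the others, which were at or near background, so the differences of 8.07 ± 0.31 from H1975 (adjusted p = 1.14e-18) and 6.28 ± 0.30 from H1299 (adjusted p = 8.6e-17) have no firm size as folds. H1975 was below H1299 by -1.78 ± 0.30 (adjusted p = 1.05e-05), with both in the background range.

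FTL was at 17.54, 17.43, 17.07 and 16.98 in A549 PBS arrays, above H1975 by 2.15 ± 0.25 (4.45-fold, adjusted p = 2.36e-08) and above H1299 by 3.04 ± 0.23 (8.21-fold, adjusted p = 6.1e-12). H1975 was above H1299 by 0.88 ± 0.23 (adjusted p = 0.00256), which was not called with arrays centred on their median (log2 difference 0.77, adjusted p = 0.0541). In PBS arrays 99.9% of genes in A549, 98.8% in H1975 and 98% in H1299 had a lower mean signal than FTL. That places the signal of its probe set among the others and is not a rank of transcript amount.

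HMOX1 averaged 9.96 ± 1.02 in A549, 7.86 ± 0.58 in H1975 and 7.28 ± 0.91 in H1299 with PBS. A549 was above H1975 by 2.10 ± 0.49 (adjusted p = 0.000784) and above H1299 by 2.68 ± 0.46 (adjusted p = 1.74e-05). H1975 and H1299 did not differ beyond error (0.59 ± 0.46, adjusted p = 0.352). Of 16 NRF2 target genes listed for reference, such as the quinone reductase gene NQO1, 15 were measured and 15 were higher in A549 than in H1975, and likewise than in H1299 (median log2 difference 4.49 and 3.85), where 18% and 19% of all genes were called higher. With Omomyc 7 of them were called in H1975, 2 higher and 5 lower, against 11.8% of all genes, 5.57% higher and 6.28% lower. In H1299 the count was 3, 2 higher and 1 lower, against 8.87% of all genes, 4.35% higher and 4.52% lower. In A549 it was 0, against 1.19%. HMOX1 and FTL, which the list leaves out, were called higher in H1975, and FTL in H1299. The part of NRF2 in these changes, and in the A549 levels of FTL, SLC40A1 and HMOX1, was not tested.

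TFRC was at 11.57 ± 0.31 in A549, 10.96 ± 0.08 in H1975 and 8.65 ± 0.22 in H1299 with PBS. H1299 was lowest, with A549 above it by 2.92 ± 0.22 (7.56-fold, adjusted p = 4.48e-12) and H1975 above it by 2.31 ± 0.22 (4.96-fold, adjusted p = 6.32e-10). A549 and H1975 were close (0.61 ± 0.23, adjusted p = 0.0397), and that call was lost when any 1 of their PBS arrays other than A549 replicate 3 was left out (log2 difference 0.47 to 0.65, adjusted p = 0.0501 to 0.155). With Omomyc, H1975 was at 8.93 ± 0.34 (n = 5), beside the 8.65 of H1299 with PBS.

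STEAP3 was lowest in A549, below H1975 by -1.12 ± 0.20 (adjusted p = 3.01e-05) and below H1299 by -1.51 ± 0.19 (adjusted p = 1.03e-07). H1975 and H1299 did not differ beyond error (-0.39 ± 0.19, adjusted p = 0.105). SLC11A2 was highest in A549, above H1975 by 1.07 ± 0.31 (adjusted p = 0.00553) and H1299 by 1.05 ± 0.29 (adjusted p = 0.00395), and H1975 and H1299 were level (-0.03 ± 0.29, adjusted p = 0.963). NCOA4 was highest in H1975, with A549 lower by -1.38 ± 0.24 (adjusted p = 2.56e-05) and H1975 above H1299 by 0.87 ± 0.23 (adjusted p = 0.0025). A549 and H1299 differed in NCOA4 by -0.51 ± 0.23 (adjusted p = 0.0766, and 0.0214 with the run as a block). ACO1 was highest in H1975 too, with A549 lower by -1.22 ± 0.21 (adjusted p = 2.27e-05), H1975 above H1299 by 0.94 ± 0.20 (adjusted p = 0.000277), and A549 and H1299 within error (-0.28 ± 0.20, adjusted p = 0.304).

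Around these genes, 101 further iron and heme genes were listed and 90 were measured. In H1975, 13 of the 90 were called, 5 higher and 8 lower, a share of 14.4% beside 11.8% of all genes. The list's median log2 difference was -0.04 and that of all genes 0.00. LTF, the gene of the iron-binding protein lactoferrin, was at 8.12 with Omomyc and 3.76 with PBS (4.36 ± 0.33, adjusted p = 2.08e-10), with the PBS level in the background range. FBXL5, the iron-sensing subunit of the ubiquitin ligase that degrades IREB2 protein, rose by 1.68 ± 0.27 (adjusted p = 6.09e-05). The sublist of FBXL5 covers control of iron regulatory proteins and other transcripts with iron-responsive elements. Of its 8 measured genes, 2 were called, 1 higher and 1 lower (11.8% of all genes). CUL1, another subunit of the ligase of FBXL5, was lower with Omomyc, unlike FBXL5. It averaged 10.44 ± 0.47 with Omomyc (n = 5) and 11.13 ± 0.21 with PBS (n = 4), and the groups overlapped. SKP1, also a subunit, averaged 14.50 ± 0.21 and 14.56 ± 0.23. BACH1, a heme-sensing repressor of HMOX1 and ferritin genes, rose by 1.54 ± 0.23 (adjusted p = 1.91e-05), in the line in which HMOX1 and FTL rose as well.

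Heme synthesis genes in H1975 had 4 of 11 measured members called, 1 higher and 3 lower, against 11.8% of all genes, 5.57% higher and 6.28% lower. ALAS1, the first and rate-limiting enzyme, rose by 0.90 ± 0.26 (adjusted p = 0.0193). FECH, ferrochelatase, which puts iron into the ring, fell by -1.56 ± 0.19 (adjusted p = 1.17e-06), as did the uroporphyrinogen synthase gene UROS (-1.13 ± 0.30, adjusted p = 0.0124) and the mitochondrial transporter gene ABCB10 (-1.29 ± 0.29, adjusted p = 0.00256). Of the heme transport and breakdown genes, BLVRB, a biliverdin reductase that acts after heme oxygenase, rose by 0.85 ± 0.26 (adjusted p = 0.0277), and FLVCR2 fell by -2.26 ± 0.36 (adjusted p = 5.45e-05). The ferrireductase gene STEAP4 (-2.73 ± 0.30, adjusted p = 2.62e-07), the BMP co-receptor gene NEO1 (-1.47 ± 0.24, adjusted p = 7.27e-05) and the iron-sulfur protein gene CISD2 (-1.07 ± 0.28, adjusted p = 0.0092) fell. With Omomyc, the means of FLVCR2 (5.90), STEAP4 (4.20) and NEO1 (5.21) in H1975 were within the background range, so their folds are uncertain. Iron-sulfur cluster assembly had 1 of 25 measured members called, a share of 4%, beside the same 11.8%.

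In H1299, 7 of the 90 were called, 3 higher and 4 lower (7.78%, beside 8.87% of all genes), and 19 with the run as a block, where 15.9% of all genes were called. CYBRD1, a plasma membrane ferric reductase, rose by 1.19 ± 0.26 (adjusted p = 0.00322), RAB11A, a recycling endosome GTPase, by 0.60 ± 0.16 (adjusted p = 0.015), and EPAS1, a hypoxia factor whose mRNA carries an iron-responsive element, by 0.71 ± 0.22 (adjusted p = 0.0397). UROS fell by -1.37 ± 0.29 (adjusted p = 0.00193). BOLA3 (-1.33 ± 0.25, adjusted p = 0.000723) and HSPA9 (-0.92 ± 0.21, adjusted p = 0.00505), both of mitochondrial iron-sulfur cluster assembly, fell, as did BMP6 (-1.24 ± 0.25, adjusted p = 0.00117), the ligand that induces hepcidin in liver, whose Omomyc mean of 6.26 was within the background range. In A549, 1 of the 90 was called (1.11%, beside 1.19% of all genes). It was LCN2, the gene of the siderophore-binding protein lipocalin 2, at 9.75 with Omomyc and 7.73 with PBS (2.02 ± 0.37, adjusted p = 0.00248).

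**Figure D4:**
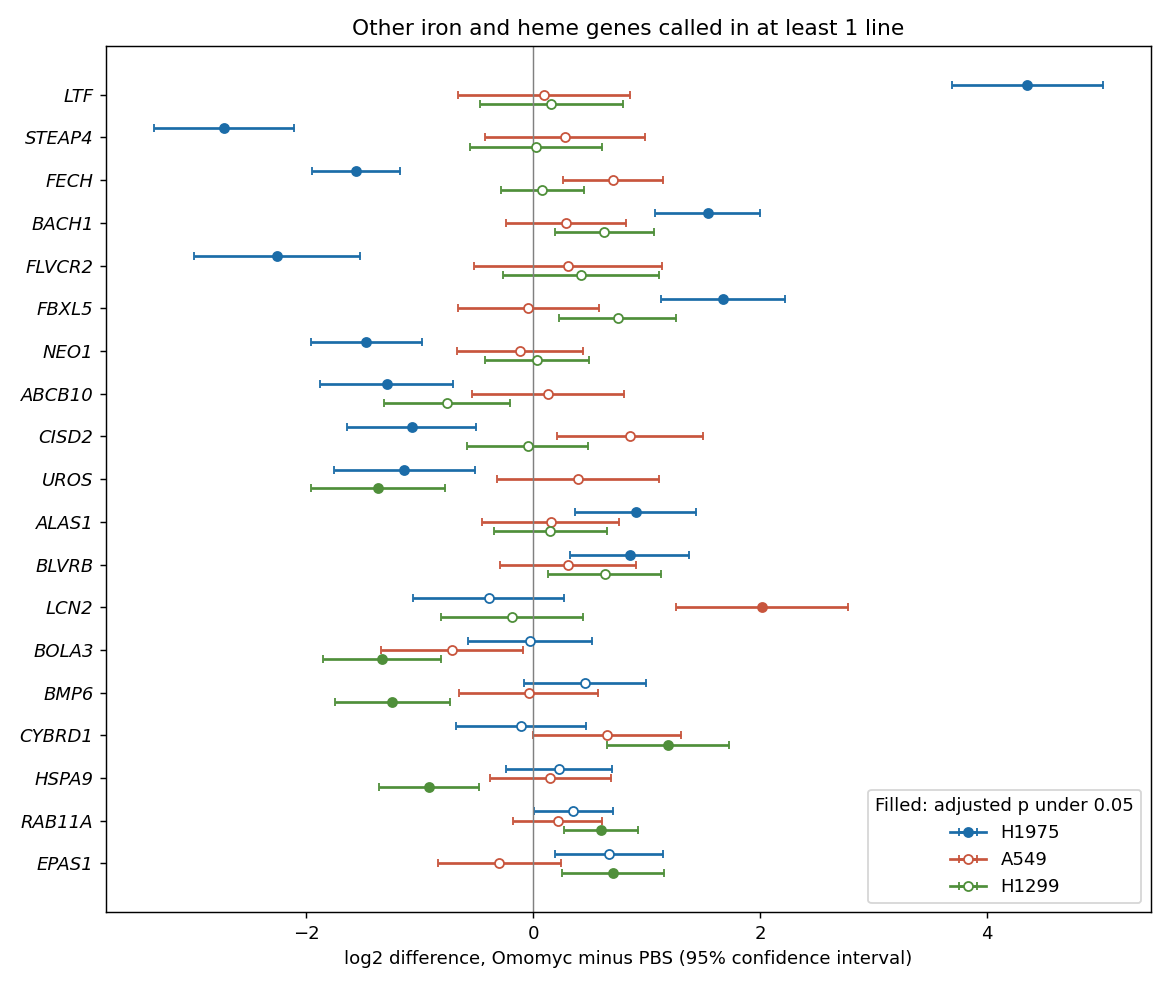
Log2 difference, Omomyc minus PBS (horizontal axis, 95% confidence intervals), of 19 other iron and heme genes called in at least 1 line. At most 12 genes per line were taken, smallest p first, so not all 13 called in H1975 are shown. Filled points mark adjusted p under 0.05. LTF reaches 4.36 in H1975, UROS is called lower in both H1975 and H1299, and LCN2 is the A549 call.

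As a description of likeness, each of 4 genes was correlated over the 26 arrays, after removal of run means, with the 8843 genes above the median level. The arrays share lines and treatments, so these values mostly follow differences between lines. TFRC was nearest to NRG1 (r = 0.947), TRMT2B (0.946) and SLITRK6 (0.946), and FTL to RPS27L (0.969), TKT (0.966) and MMD (0.95). SLC40A1 was nearest to CNTN1 (0.987), ATP1B1 (0.986) and MYRF (0.985). For HMOX1 the nearest gene was FTL itself (0.917), before RBCK1 (0.891) and CD55 (0.887).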

How the data were processed

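The values the authors deposited are log2 signals per probe set, and the submitters' processing notes name the tools RMA and Partek. RMA corrects for background, applies quantile normalization and combines the probes of a set. Tool versions, whether RMA was run on all arrays at once, and the genome build of the probe sets, are not given in the sources used here. Of 24351 features, 17709 had 1 gene symbol (0 had several, 6642 none listed), all matched by Entrez ID, giving 17687 genes. For 20 genes with over 1 probe set, the highest mean was used. No 2 arrays were identical. The number of arrays limits the precision.

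limma 3.58.1 in R 4.3.3 fitted 1 coefficient for each of 6 groups to 26 arrays (20 residual degrees of freedom, lmFit and eBayes). Runs are 3 average-linkage clusters of the arrays' sorted values, which no label names, so separate normalization and other batches cannot be told apart. The genes, lists, runs and alternatives were chosen with earlier results of these data known. The text names all measured members and up to 12 called genes of the other iron list per line, with CUL1 and SKP1 beside FBXL5. It also names the 3 genes most correlated with TFRC, FTL, SLC40A1 and HMOX1.

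Same-numbered Omomyc and PBS arrays correlated in their deviations from group means at 0.259 to 0.389 in 5 pairs of H1299 and 0.109 to 0.196 in 3 pairs of A549, all over 0.1. Each of those pairs lay in 1 run, so pairing by number cannot be told apart from a shared run. In H1975 they ranged from -0.196 to 0.331, with 1 of 4 over 0.1. On simulated data with 200 of 17687 genes changed, the fit recovered 96%, 94% and 98% of changes of 2 (log2) in H1975, A549 and H1299. For changes of 1 it recovered 45%, 28% and 54%. The simulated noise was independent for each gene and array, without runs, and the same 200 genes changed in every line. The data differ in these points, so the shares check the fit and do not measure how many real changes it found. Alternatives covered normalization, centring, filtering, probe sets, samples fitted, moderation, array weights, threshold, replicate block, run, and leaving out each array.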

Additional observations from a re-analysis of the deposited data

Results flagged for a closer look

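In 40 sets of 1 gene in 1 group of 4 or 5 arrays, 2 (5%) had 1 array far from the others by Dixon's ratio, and chance gives about 1 in 20. HMOX1 in A549 PBS replicate 4 was at 8.44 (8.437), with the other A549 PBS arrays between 10.45 and 10.48. That array is the only A549 array of run 3, and HMOX1 was also lowest in run 3 in both treatments of H1975 and H1299. ACO1 in H1975 PBS replicate 1 was at 11.34 (11.338), with the others between 11.67 and 11.70.

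The response to Omomyc differed between lines for TFRC (F test adjusted p = 0.00495) and STEAP3 (adjusted p = 0.00508). The TFRC difference was -2.03 in H1975, -0.87 in A549 and -0.57 in H1299, and that of STEAP3 was -0.36, 0.33 and 0.93. With the run as a block, the adjusted p was 0.00109 for TFRC and 0.00137 for STEAP3.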

How the results depend on the processing

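Across the alternatives other than leaving out 1 array, 607 of 664 differences of single genes kept their side of the threshold, 40 calls were lost and 17 gained, and 0 called differences changed sign. Uncalled differences changed sign 28 times in these alternatives and 21 times when 1 array was left out. Counts of the 8 genes in H1975 (4) became 2 at an adjusted p under 0.01 and 1, 2 and 1 on run 1, 2 or 3 alone. In A549 (0) they became 1 with array weights or the run as a block. In H1299 (3) they became 5 with the replicate block, the run as a block or both, 1 at an adjusted p under 0.01 and 0 on run 1 or run 2 alone. The F test count (2) became 4 with the run as a block. Between PBS arrays, the count for A549 minus H1975 (8) became 5 on run 1 or run 3 alone, and that for H1975 minus H1299 (5) became 3 on run 1 or run 2 alone. The replicate block changed no other count of the 8 genes by over 1.5 times, but it changed single calls. With it, limma called NCOA4 between A549 and H1299 PBS arrays (adjusted p = 0.022, against 0.0766 without it). The F test then also called HMOX1 (adjusted p = 0.00586, against 0.481 without it). Among the other iron genes, the H1975 count (13) became 20 after quantile normalization, 22 with the run as a block and 8 on run 3 alone. The A549 count (1) became 3 with array weights, 2 with run and replicate block together, and 0 on that line alone or on run 1 or 2. The H1299 count (7) became 12 after quantile normalization, 14 with the replicate block, 19 with the run as a block, 16 with both, 0 on run 1 alone and 3 on run 2 alone. Leaving out 1 array gave 2 to 4 of the 8 genes in H1975 (2 without PBS replicate 4), 0 to 1 in A549 (1 without Omomyc replicate 2) and 1 to 3 in H1299 (1 without PBS replicate 2 or PBS replicate 4). Where a run held 1 array of a group, its spread was taken from other groups. Runs alone hold fewer arrays. With the run as a block, 19.2%, 2.84% and 15.9% of all genes were called in H1975, A549 and H1299, against 11.8%, 1.19% and 8.87% without it. In the F test the shares were 17.4% with it and 8.18% without it. For the other alternatives the share of all genes is not given. A changed count there is therefore not read as a change of the iron genes. Other causes were not tested.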
